A study of Mus musculus with 18 samples.

Results

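mmu-miR-130a-3p, mmu-miR-130b-3p, mmu-miR-301a-3p and mmu-miR-301b-3p (written below without the mouse prefix mmu) are the 4 members of a microRNA (miRNA) family that shares the seed AGUGCAA. They were taken by name from the 1841 mature miRNAs counted, and the family was picked because miR-130b-3p was lower in both mouse lines that carry a Cdr1as mutation. The levels in those lines against WT or CyrKO mice are therefore given as a description, without a test. Tests below that use the WT cerebellum libraries, or set those lines against each other, are not independent of this choice. The same may hold for tests that use the CyrKO cerebellum libraries. Small RNAs of mouse brain were sequenced in 18 libraries of 6 groups with 3 biological replicates each. Hippocampus came from CyrKO mice, which lack the long noncoding RNA Cyrano, and from wild-type (WT) mice. Cerebellum came from CyrKOCdr1as671 double mutants (labelled CyrKO; Cdr1as 671 18 nt del), from Cdr1as671 mice (Cdr1as 671 18nt del), whose circular RNA Cdr1as has its miR-671 site mutated, from CyrKO mice and from WT mice. All mice were males of the C57BL/6J strain aged 1 month. The Cdr1as mutation was profiled in cerebellum only. Small-RNA libraries do not measure Cyrano or Cdr1as, and the genotype labels were taken as given.

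A miRNA guides an Argonaute protein to messenger RNAs, mainly by pairing of its seed (bases 2 to 8) with their 3′ untranslated regions, so miRNAs of one seed are expected to share many targets. A hairpin precursor yields a 5p and a 3p strand, and usually one of them, the guide, stays in Argonaute while the other is discarded. In this family the 3p strands are the guides, and miR-130 is known for repressing Pparg, a regulator of fat cell formation. Cyrano is known for directing the destruction of miR-7 through an extensively paired site, and Cdr1as for carrying many miR-7 sites and a site at which miR-671 slices it.

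The mature sequences show what the members share and where they part. They are from RefSeq on GRCm38.p6, run 5′ to 3′, and have the seed in capitals. Of the 4 members, 3 matched an entry of the table.
miR-130a-3p: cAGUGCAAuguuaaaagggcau
miR-130b-3p: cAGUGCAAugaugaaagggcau
miR-301a-3p: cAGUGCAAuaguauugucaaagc
miR-130a-3p and miR-130b-3p were identical at 20 of 22 positions, counted from 1 at the 5′ end, and differed by U11A and A13G (miR-130a-3p first). miR-301a-3p matched miR-130a-3p at 12 of the same 22 positions and miR-130b-3p at 11, and it shared the first 9 bases with each.

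The 4 hairpins lie at 3 places of the genome. Mir130a is at chr2:84741115-84741178 on the minus strand and overlapped no annotated gene. Mir301, the hairpin of miR-301a, is at chr11:87113004-87113089 on the plus strand, in an intron of Ska2, which encodes a spindle and kinetochore protein. Mir130b at chr16:17124061-17124142 and Mir301b at chr16:17124400-17124496 are both on the minus strand in an intron of 2610318N02Rik, with 257 bases between them.

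The 5p strand of miR-130b is shown because its ratio to the 3p strand is described below, and miR-6341 because it was the only other miRNA with the family seed that had a read.
miR-130b-5p: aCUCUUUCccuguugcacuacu
miR-6341: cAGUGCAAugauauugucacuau
miR-6341 had 25 reads in the 18 libraries together, 13 of them in 1 WT cerebellum library. miR-721, miR-6389 and miR-130c, which also carry the seed, had 0 reads in every library. A count of 0 allows up to 3 reads, or 0.196 to 0.349 CPM across the libraries, where CPM gives the reads of a miRNA relative to all miRNA reads of its library. The 4 members made up nearly all reads of the listed miRNAs with this seed.

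Related-seed guides were set beside the family, and their seeds overlap the family seed by 6 bases at a shifted position, GUGCAA in the miR-19 strands and AGUGCA in miR-148 and miR-152.
miR-19a-3p: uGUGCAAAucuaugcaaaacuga
miR-19b-3p: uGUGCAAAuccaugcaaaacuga
miR-148a-3p: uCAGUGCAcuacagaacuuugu
miR-148b-3p: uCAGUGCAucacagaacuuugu
miR-152-3p: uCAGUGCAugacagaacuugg

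Libraries held 8591172 to 15305829 miRNA reads, and RNA integrity numbers ran from 8.5 to 9.5. Levels are given in CPM. Mature strands are counted whole, so levels of different miRNAs need no length correction, while a bias of ligation between sequences was not measured. All 3 neuronal markers (miR-124-3p, miR-128-3p and miR-9-5p) were abundant in every library, with sums of 242646 to 367613 CPM. The erythroid markers miR-451a, miR-144-3p and miR-144-5p, which mark red blood cells, differed most between libraries of one group. Their sum was 783, 603 and 16205 CPM in Cdr1as671 libraries 1, 2 and 3. In the other cerebellum libraries it ran from 5405 to 32949 CPM, so Cdr1as671 libraries 1 and 2 stood apart. For the members, the other strands and the related-seed guides, part of the changes that use these libraries are also given without them. Counts of replicate libraries differed well beyond sampling noise, by a chi-square of 22.3 to 297 per degree of freedom, so each library was counted as a sample.

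miR-130a-3p and miR-301a-3p were the abundant members, and the other two were far lower. Over all libraries miR-130a-3p averaged 2403 CPM and ranked 55 of 1841, and miR-301a-3p averaged 1114 CPM and ranked 88. miR-130b-3p averaged 24.3 CPM at rank 365 and miR-301b-3p 11.1 CPM at rank 434. The lowest counts behind these levels were 123 reads for miR-130b-3p and 35 for miR-301b-3p, against 15578 for miR-130a-3p and 6352 for miR-301a-3p. Since miR-130a-3p exceeded miR-130b-3p by so much and the treatment of mismatched reads in the authors' counting is not given in the sources used here, a contribution of miR-130a-3p reads to the miR-130b-3p count was not tested.

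The summed family level averaged 3645 ± 132 CPM in CyrKO hippocampus and 3413 ± 469 CPM in WT hippocampus (SD, n = 3 each, as throughout). In cerebellum it averaged 3355 ± 456 CPM in CyrKOCdr1as671, 3064 ± 258 CPM in Cdr1as671, 3874 ± 410 CPM in CyrKO and 3960 ± 336 CPM in WT libraries. miR-130a-3p held 62.0% ± 0.960 and 60.8% ± 1.98 of the family reads in CyrKO and WT hippocampus. Its share in the 12 cerebellum libraries was 66.6% to 75.9%, above every hippocampus library, whose highest was 63.0%. miR-301a-3p made up most of the rest, at 35.5% to 40.0% in hippocampus and 23.4% to 32.8% in cerebellum.

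**Figure D1:**
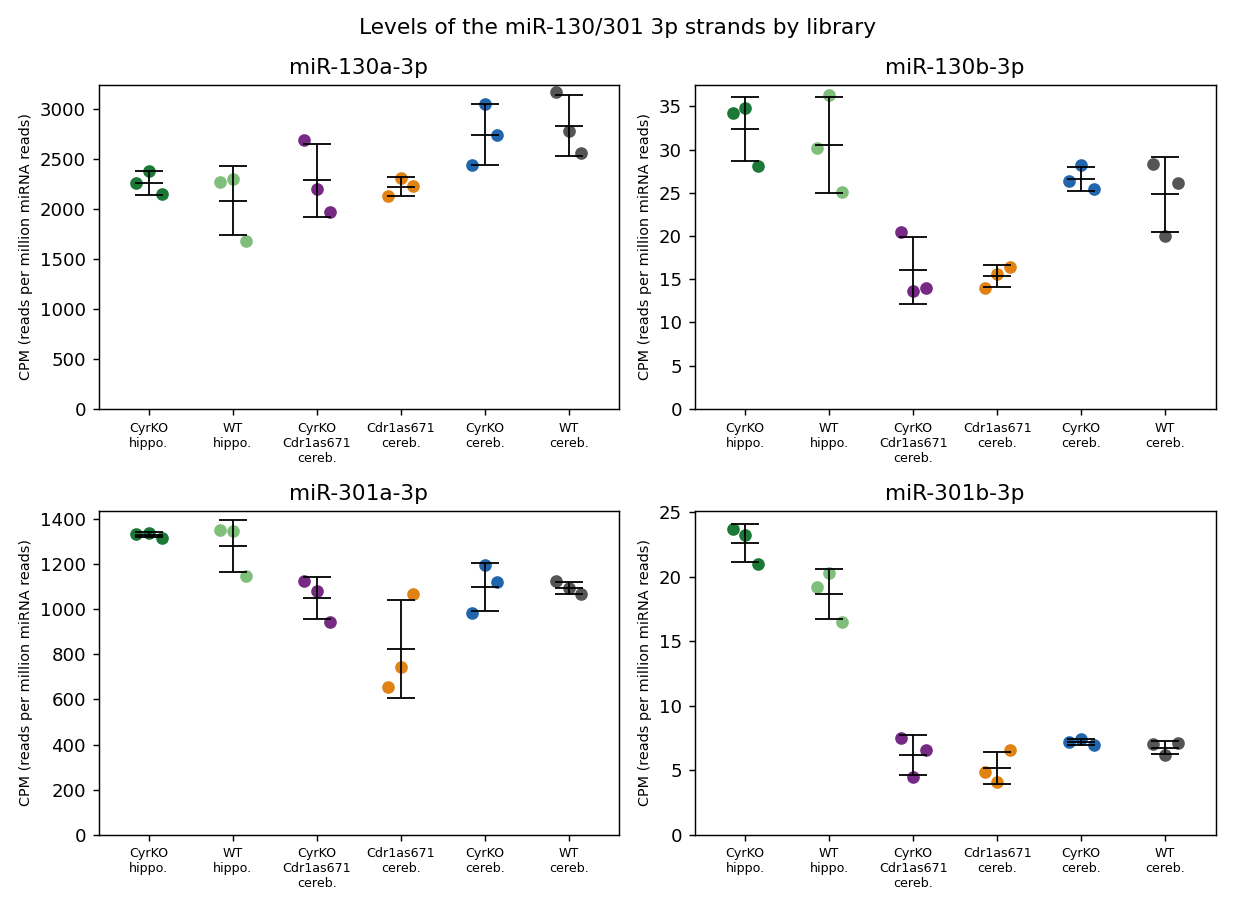
CPM of each member (vertical axis, linear from 0) by group; points are libraries 1 to 3 from left to right, bars the mean ± SD of 3 libraries. miR-301b-3p sits at 16.5 to 23.7 CPM in hippocampus and at 4.07 to 7.49 CPM in cerebellum, and miR-130b-3p is lowest in the 2 groups with the Cdr1as mutation.

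miR-130a-3p, the most abundant member, had 2254, 2379 and 2145 CPM in CyrKO hippocampus and 2270, 2293 and 1680 CPM in WT hippocampus. In cerebellum it had 2687, 2193 and 1969 CPM in CyrKOCdr1as671, 2124, 2313 and 2224 CPM in Cdr1as671, 2437, 3044 and 2738 CPM in CyrKO, and 3164, 2774 and 2560 CPM in WT libraries. Ordered by mean, the groups ran from WT cerebellum (2833 ± 306 CPM) over CyrKO cerebellum, CyrKOCdr1as671, CyrKO hippocampus and Cdr1as671 to WT hippocampus (2081 ± 348 CPM). The libraries of every 2 neighbours in that order overlapped.

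miR-301a-3p, the intronic miRNA of Ska2, had 1333, 1340 and 1318 CPM in CyrKO hippocampus and 1350, 1348 and 1150 CPM in WT hippocampus. In cerebellum it had 1124, 1080 and 944 CPM in CyrKOCdr1as671, 656, 746 and 1069 CPM in Cdr1as671, 985, 1196 and 1119 CPM in CyrKO, and 1124, 1094 and 1068 CPM in WT libraries. The order by mean was CyrKO hippocampus (1331 ± 11.3 CPM), WT hippocampus, CyrKO cerebellum, WT cerebellum, CyrKOCdr1as671 and Cdr1as671 (824 ± 217 CPM), and neighbours overlapped. Only the first 2 libraries of Cdr1as671 lay below every other library.

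miR-130b-3p had 34.3, 34.8 and 28.1 CPM in CyrKO hippocampus and 30.1, 36.3 and 25.1 CPM in WT hippocampus. In cerebellum it had 20.5, 13.7 and 14.0 CPM in CyrKOCdr1as671, 14.0, 15.6 and 16.5 CPM in Cdr1as671, 26.3, 28.2 and 25.5 CPM in CyrKO, and 28.3, 20.0 and 26.2 CPM in WT libraries. The order was CyrKO hippocampus (32.4 ± 3.70 CPM), WT hippocampus, CyrKO cerebellum, WT cerebellum, CyrKOCdr1as671 and Cdr1as671 (15.3 ± 1.28 CPM). Neighbours overlapped, WT cerebellum and CyrKOCdr1as671 by 1 library each, at 20.0 and 20.5 CPM.

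miR-301b-3p had 23.7, 23.2 and 21.0 CPM in CyrKO hippocampus and 19.2, 20.3 and 16.5 CPM in WT hippocampus. In cerebellum it had 7.49, 4.46 and 6.58 CPM in CyrKOCdr1as671, 4.86, 4.07 and 6.53 CPM in Cdr1as671, 7.17, 7.38 and 6.97 CPM in CyrKO, and 7.01, 6.14 and 7.07 CPM in WT libraries. It was the only member whose neighbours in the order of means parted without overlap. These were CyrKO and WT hippocampus (22.6 ± 1.46 and 18.7 ± 1.95 CPM) and WT hippocampus and CyrKO cerebellum (7.17 ± 0.208 CPM). Of all tested miRNAs, 4.84% were higher in CyrKO than in WT hippocampus without overlap. Higher in hippocampus than in cerebellum without overlap were 54% in WT and 58.8% in CyrKO mice. For WT hippocampus against CyrKO cerebellum the share was not computed.

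Hippocampus and cerebellum of WT mice differed in 3 of the 4 members by edgeR's quasi-likelihood test, in which libraries are scaled by TMM (which centres the bulk of miRNAs) and p-values are adjusted over all tested miRNAs. miR-130a-3p was lower in hippocampus, with a log2 change of -1.0 (SE 0.13, adjusted p = 2.51e-06), and miR-301a-3p was lower with -0.32 (SE 0.094, adjusted p = 0.00589). miR-301b-3p was higher with 0.92 (SE 0.13, adjusted p = 7.99e-06), and miR-130b-3p did not pass with -0.25 (SE 0.15, adjusted p = 0.142). Of 746 miRNAs tested, 70% were called, 37.5% higher and 32.4% lower, so a call of 3 of 4 is near the background of this comparison. The median log2 change was -0.29 over the members and 0.028 over all miRNAs tested.

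The direction for miR-301a-3p and miR-130b-3p turned with the scaling. When libraries were scaled by their totals alone, as CPM is, the median of all miRNAs shifted to 0.58, and miR-301a-3p was higher in hippocampus with 0.23 (SE 0.087, adjusted p = 0.0281). miR-130b-3p was then at 0.30 (SE 0.16, adjusted p = 0.0984). By CPM all 3 WT hippocampus libraries exceeded all 3 WT cerebellum libraries for miR-301a-3p, at 1150 CPM or more against 1124 CPM or less, so its change was upward in CPM but below the median change of all miRNAs. miR-130a-3p stayed lower (log2 change -0.44) and miR-301b-3p higher (1.47) under that scaling, both past the threshold. By CPM without overlap of libraries, 2 members were higher, as were 54% of all miRNAs, and 1 was lower, as were 18%.

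The same comparison in CyrKO mice, which shares no library with the WT one, gave the same 3 calls. Both came from 1 fit with a shared estimate of spread, so the calls are not fully separate. The log2 changes of CyrKO hippocampus against CyrKO cerebellum were -0.86 for miR-130a-3p (SE 0.12, adjusted p = 1.33e-05), -0.30 for miR-301a-3p (SE 0.094, adjusted p = 0.00882), 1.08 for miR-301b-3p (SE 0.13, adjusted p = 1.06e-06) and -0.30 for miR-130b-3p (SE 0.15, adjusted p = 0.0812, quasi-likelihood test in edgeR). Of the miRNAs tested, 72.1% were called. By CPM without overlap of libraries, 2 members were higher, as were 58.8% of all miRNAs, and 1 was lower, as were 18.5%. With totals alone the median of all miRNAs was 0.68, and miR-301a-3p reversed to 0.27 (adjusted p = 0.0101) and miR-130b-3p to 0.28 (adjusted p = 0.112). The call of miR-301a-3p was lost without WT hippocampus library 3 (-0.19, edgeR adjusted p = 0.0727) or WT cerebellum library 1 (-0.23, adjusted p = 0.0643). In CyrKO mice it was lost without hippocampus library 2 (-0.25, edgeR adjusted p = 0.0557) or cerebellum library 2 (-0.20, adjusted p = 0.0602).

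Marker miRNAs of other cell types also differed between the tissues. The erythroid sum was 2583 to 3058 CPM in WT hippocampus and 6326 to 32949 CPM in WT cerebellum. The vessel markers (the miR-126a strands, miR-143-3p and miR-145a-5p) summed to 11451 to 11895 CPM in WT hippocampus and 8090 to 8840 CPM in WT cerebellum, but in the TMM-scaled fit their median log2 change was -0.081 and 0 of 4 were called. In that fit all 3 erythroid markers, 2 of 3 neuronal markers and 2 of 5 immune markers (the miR-142 strands, miR-223-3p, miR-150-5p and miR-155-5p) fell in WT hippocampus, with list medians of -3.19, -0.70 and -0.56, and 2 of 5 choroid plexus markers rose, with a median of 0.48. Over all tested miRNAs, 32.4% were called lower and 37.5% higher in this comparison. The immune and choroid plexus counts are near that background. The immune sum in CPM was 3123 to 3499 in WT hippocampus and 2474 to 3256 in WT cerebellum. That sum was thus not lower in hippocampus. None of the erythroid and vessel markers was at 0, and the part of these markers in the tissue differences was not tested. In bulk tissue, fewer cells of a type and less of a miRNA per cell cannot be told apart.

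Ratios within a library do not depend on scaling, and those between members also differed between the tissues. miR-301a-3p stood at 0.595, 0.588 and 0.684 of miR-130a-3p in WT hippocampus and at 0.355, 0.394 and 0.417 in WT cerebellum. In CyrKO mice the ratio was 0.591, 0.563 and 0.615 in hippocampus and 0.404, 0.393 and 0.409 in cerebellum. The tissues did not overlap in either genotype. For ratios of other miRNAs or strands, here and below, the share without overlap was not computed. Of single miRNAs tested, 70% were called between the tissues in WT and 72.1% in CyrKO mice.

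miR-301b-3p and miR-130b-3p come from the same intron, and their ratio also differed between the tissues. It was 0.637, 0.559 and 0.657 in WT hippocampus and 0.248, 0.307 and 0.270 in WT cerebellum. In CyrKO mice it was 0.691, 0.668 and 0.745 in hippocampus and 0.272, 0.262 and 0.274 in cerebellum. The ratio in each hippocampus library thus exceeded that in every cerebellum library of its genotype, and also the highest ratio in the mutants with altered Cdr1as, 0.472.

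The 3p strand outnumbered the 5p strand in all 4 hairpins, by very different factors. In WT hippocampus and WT cerebellum together, the ratio of 3p to 5p reads was 187 to 310 for miR-130a and 89.6 to 138 for miR-301a, but 1.93 to 6.13 for miR-130b. miR-301b-5p had 23 reads in all 18 libraries, at most 5 in a library and 0 in 5 of them, so its ratio is poorly defined. The passenger strand of its neighbour on chromosome 16, miR-130b-5p, had 1205 reads in all.

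For miR-130b the strand ratio was lower in hippocampus than in cerebellum of WT and of CyrKO mice. It was 3.08, 3.25 and 1.93 in WT hippocampus and 6.13, 4.88 and 5.37 in WT cerebellum, without overlap. The mean log2 ratio was 1.42 ± 0.42 in WT hippocampus and 2.44 ± 0.17 in WT cerebellum (SD, n = 3 each), a difference of -1.02 with p = 0.1 by an exact two-sided permutation test. That is the smallest p that 3 against 3 libraries can give, and over the 3 hairpins tested the adjusted p is 0.3. The ratio in CyrKO mice was 3.13, 2.98 and 3.19 in hippocampus and 6.23, 7.18 and 4.19 in cerebellum, again without overlap. For the other hairpins the log2 ratio differed by 0.11 (miR-130a, exact p = 0.6) and by -0.23 (miR-301a, exact p = 0.3), and none of the 3 hairpins could have passed at this number of libraries.

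**Figure D2:**
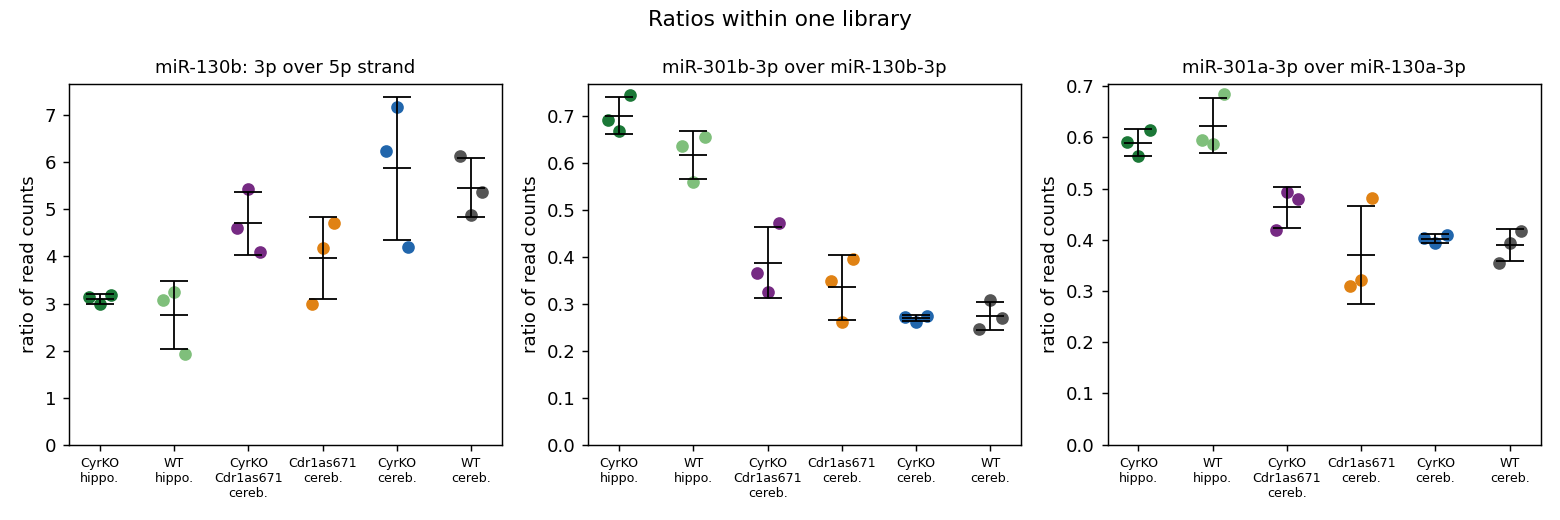
Ratios of read counts within a library (vertical axes, linear from 0) by group, for the strands of miR-130b, for miR-301b-3p over miR-130b-3p and for miR-301a-3p over miR-130a-3p; points are libraries 1 to 3, bars the mean ± SD of 3. Both ratios between members are highest in the hippocampus groups. The mean strand ratio of miR-130b is lowest there, but Cdr1as671 library 1, at 3.0, lies within the hippocampus range.

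In the fit, of the miR-130b strands only the 5p strand had a call between the tissues, and the difference between the strands was not tested there. miR-130b-5p had 9.78, 11.2 and 13.0 CPM in WT hippocampus and 4.62, 4.10 and 4.88 CPM in WT cerebellum, and no library of one tissue reached the other. Its log2 change was 0.78 (SE 0.18, edgeR adjusted p = 0.000995), and in CyrKO mice 0.58 (SE 0.17, adjusted p = 0.00796). miR-130a-5p was lower in WT hippocampus, like its 3p strand, with -1.10 (SE 0.16, edgeR adjusted p = 1.16e-05), and miR-301a-5p did not pass with -0.12 (SE 0.17, adjusted p = 0.549). miR-301b-5p was below the count filter. Over all miRNAs tested, 70% were called between the tissues in WT and 72.1% in CyrKO mice. By CPM, 54% were higher in WT hippocampus without overlap of libraries.

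Among the 5 related-seed guides, 3 passed in the WT tissue comparison, 1 higher and 2 lower, in which 37.5% of all tested miRNAs were called higher and 32.4% lower. miR-148a-3p was higher in WT hippocampus with a log2 change of 1.53 (SE 0.090, edgeR adjusted p = 2.71e-10). miR-19a-3p and miR-19b-3p, members of the oncogenic cluster oncomiR-1, were lower with -1.10 (SE 0.12) and -0.58 (SE 0.098), and miR-148b-3p (-0.13) and miR-152-3p (0.015) did not pass. The list's median was -0.13, against 0.028 over all miRNAs tested.

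Loss of Cyrano left all 4 members without a call in either tissue. The cerebellum test uses WT libraries that also took part in picking the family, so it is not independent of that choice. In cerebellum miR-130a-3p had a log2 change of -0.045 (SE 0.11) in CyrKO against WT, miR-130b-3p of 0.11 (SE 0.15), miR-301a-3p of 0.011 (SE 0.097) and miR-301b-3p of 0.096 (SE 0.15). Each had an adjusted p of 0.999 in edgeR, and 0 of 4 passed, in a comparison that called 0.898% of 668 miRNAs. None of the 4 had an unadjusted p under 0.05, and DESeq2 called 0 of 4. The libraries of CyrKO and WT cerebellum overlapped for miR-130a-3p, miR-130b-3p and miR-301a-3p, and for miR-301b-3p at 6.97 to 7.38 and 6.14 to 7.07 CPM.

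In hippocampus the log2 changes of CyrKO against WT were 0.10 (SE 0.11) for miR-130a-3p, 0.067 (SE 0.14) for miR-130b-3p and 0.035 (SE 0.074) for miR-301a-3p. For miR-301b-3p the log2 change was 0.26 (SE 0.11), with an unadjusted p of 0.0439 and an adjusted p of 0.846 in edgeR, so it did not pass although all 3 CyrKO libraries exceeded all 3 WT libraries. Without overlap, 4.84% of all tested miRNAs were higher in CyrKO. None of the 4 members passed in edgeR or in DESeq2, in a comparison that called 0.57% of 702 miRNAs.

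The difference of the CyrKO effect between the tissues (hippocampus minus cerebellum) was 0.14 (SE 0.18) for miR-130a-3p, -0.048 (SE 0.21) for miR-130b-3p, 0.020 (SE 0.13) for miR-301a-3p and 0.16 (SE 0.18) for miR-301b-3p. None of the 4 passed in edgeR, with adjusted p of at least 0.968, or in DESeq2, and none had an unadjusted p under 0.05. The comparison called 0.402% of 746 miRNAs. The related-seed guides had 0 of 5 calls in each of these 3 comparisons.

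In mice with the Cdr1as mutation, loss of Cyrano was followed in the contrast of CyrKOCdr1as671 with Cdr1as671. The family was picked on both of these groups, so this test is not independent of that choice. The log2 changes were 0.15 (SE 0.12) for miR-130a-3p, 0.17 (SE 0.17) for miR-130b-3p, 0.45 (SE 0.16) for miR-301a-3p and 0.35 (SE 0.21) for miR-301b-3p. None of the 4 passed in edgeR or DESeq2, in a comparison that called 0.727% of 688 miRNAs. miR-301a-3p had an unadjusted p of 0.0145 and an adjusted p of 0.545 in edgeR. The value for miR-301a-3p rested on Cdr1as671 libraries 1 and 2, with 656 and 746 CPM against 1069 CPM in library 3. Without library 3 it was 0.76 (SE 0.11, edgeR adjusted p = 0.000782). Without libraries 1 and 2 it was 0.0046 (SE 0.13), where the lone library is assumed to vary like the other groups. The median change of the 4 members was then -0.00084, against 0.26 with all libraries, and miR-301b-3p was at -0.049.

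Marker levels also differed among these libraries. The mean log2 level of the erythroid markers against the WT cerebellum mean was -4.40 and -4.89 in Cdr1as671 libraries 1 and 2, and 0.26 in library 3. In CyrKOCdr1as671 libraries it was 0.093, -1.35 and -0.27. For the 5 immune markers it was -0.84 and -0.74 in Cdr1as671 libraries 1 and 2 and 0.029 in library 3, while their summed level was similar at 2836, 2930 and 2764 CPM. None of the 3 erythroid markers was at 0, and the part of either list in the miR-301a-3p values was not tested. The related-seed miR-19a-3p had the same split, with 153 and 187 CPM in Cdr1as671 libraries 1 and 2 against 341 CPM in library 3, and miR-19b-3p had 1377, 1623 and 2211 CPM.

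**Figure D3:**
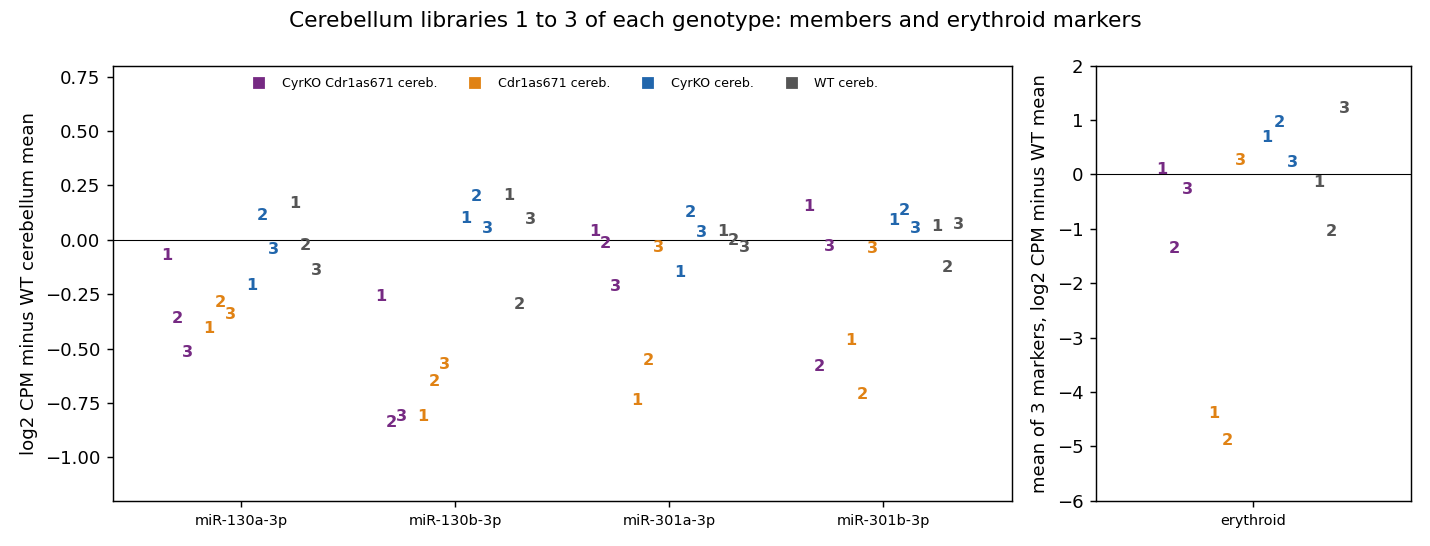
Left, log2 CPM of each cerebellum library minus the WT cerebellum mean for the 4 members; right, the mean of 3 erythroid markers on the same scale with a wider axis; digits are library numbers and colours genotypes. Cdr1as671 libraries 1 and 2 are lowest for miR-301a-3p and for the erythroid markers, and library 3 is near the WT mean in both, while for miR-130b-3p all 3 libraries lie below every WT library.

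The Cdr1as mutants are described here without a test, since the family was picked on them. The log2 change in Cdr1as671 against WT cerebellum was -0.39 (SE 0.11) for miR-130a-3p, -0.74 (SE 0.16) for miR-130b-3p, -0.45 (SE 0.18) for miR-301a-3p and -0.41 (SE 0.21) for miR-301b-3p. The comparison called 2.26% of 665 miRNAs in edgeR. The Cdr1as671 libraries lay below all WT libraries for miR-130a-3p and miR-130b-3p, as 12% of all tested miRNAs did, and overlapped them for miR-301a-3p and miR-301b-3p.

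The libraries behind these values were not alike for all members. Values without libraries 1 and 2 came from the fit of the cerebellum libraries of all genotypes, less these libraries. The changes above came from a fit of Cdr1as671 and WT alone, so the fit also differed. For miR-130b-3p the CPM was similar in the 3 Cdr1as671 libraries, and the change without libraries 1 and 2 was -0.53 (SE 0.25). For miR-130a-3p it was -0.29 (SE 0.18). For miR-301a-3p and miR-301b-3p it was 0.026 (SE 0.13) and 0.017 (SE 0.26), so their lower means rested on libraries 1 and 2. Without library 3 these 2 members were at -0.71 and -0.65.

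In CyrKOCdr1as671 both miR-130 members had lower means than in WT, and both miR-301 members had changes near 0. The log2 change against WT cerebellum was -0.23 (SE 0.12) for miR-130a-3p, -0.55 (SE 0.19) for miR-130b-3p, 0.019 (SE 0.077) for miR-301a-3p and -0.045 (SE 0.20) for miR-301b-3p. The comparison called 2.57% of 662 miRNAs in edgeR (17), and 35 with the library number as a block, where miR-130b-3p was at -0.55 (SE 0.12). For miR-130b-3p, 2 of 3 double mutant libraries lay below every WT library, and library 1 with 20.5 CPM lay within the WT range.

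Against CyrKO cerebellum, the same double mutant libraries gave log2 changes of -0.22 (SE 0.12), -0.68 (SE 0.17), -0.020 (SE 0.16) and -0.17 (SE 0.21) for miR-130a-3p, miR-130b-3p, miR-301a-3p and miR-301b-3p. All 3 double mutant libraries lay below all CyrKO libraries for miR-130b-3p, as 21.1% of the tested miRNAs did. The comparison called 2.33% of 688 miRNAs in edgeR. The 3 comparisons share the WT or double mutant libraries, so their values are not independent of each other.

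Markers of other cell types are given beside these values, without a test. In CyrKOCdr1as671 against CyrKO the log2 changes were negative for 3 of 3 erythroid markers (median -0.97) and 5 of 5 immune markers (median -0.41) and positive for both oligodendrocyte markers (median 0.36). In CyrKOCdr1as671 against WT they were negative for 3 of 3 erythroid markers (median -0.63) and 5 of 5 immune markers (median -0.15) and positive for both oligodendrocyte markers (median 0.22). In Cdr1as671 against WT the medians were -1.52, -0.22 and 0.23 in the same order, and 0.047, 0.011 and 0.37 without libraries 1 and 2. The choroid plexus median was 0.025 in CyrKOCdr1as671 against CyrKO, -0.17 in CyrKOCdr1as671 against WT and -0.41 in Cdr1as671 against WT. In these comparisons the vessel medians were 0.0094, 0.00099 and 0.014, and the neuronal medians were 0.0033, 0.051 and -0.11. Without libraries 1 and 2, Cdr1as671 against WT had medians of -0.14 (choroid plexus), 0.20 (vessel) and -0.0012 (neuronal). The part of all these markers in the miR-130b-3p values was not tested.

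The family was picked for the direction of miR-130b-3p, so its sign over the alternatives tried supports nothing. Its log2 change ran from -0.89 to -0.53 for Cdr1as671 against WT, from -0.75 to -0.42 for CyrKOCdr1as671 against WT and from -0.84 to -0.53 for CyrKOCdr1as671 against CyrKO. The passenger strand miR-130b-5p was at -0.23 (SE 0.21), -0.30 (SE 0.23) and -0.39 (SE 0.23), in the same order, and at -0.31 (SE 0.34) in Cdr1as671 against WT without Cdr1as671 libraries 1 and 2. Its counts were low, with 3.50 to 4.65 CPM in Cdr1as671, 2.52 to 4.46 CPM in CyrKOCdr1as671 and 4.10 to 4.88 CPM in WT cerebellum.

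The related-seed guides are described for the same comparisons. All 5 had negative log2 changes in each, with medians of -0.34, -0.25 and -0.23 against medians of -0.012, -0.010 and -0.0084 over all miRNAs tested. miR-19a-3p was at -1.0 (SE 0.35) and miR-19b-3p at -0.81 (SE 0.17) in Cdr1as671 against WT, and at -0.32 (SE 0.17) and -0.25 (SE 0.18) in CyrKOCdr1as671 against WT. Without Cdr1as671 libraries 1 and 2, miR-19a-3p was at -0.32 (SE 0.24) and miR-19b-3p at -0.37 (SE 0.23) in Cdr1as671 against WT, and the median of the 5 was -0.19.

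**Figure D4:**
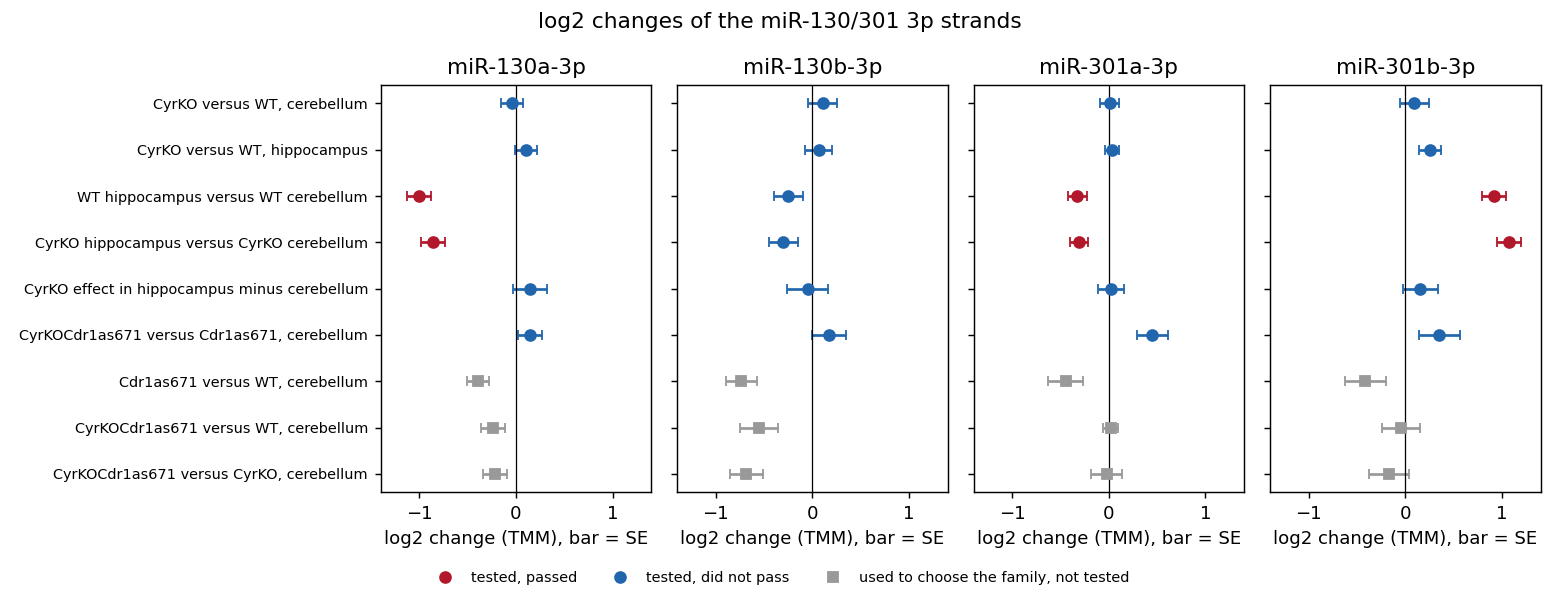
Log2 change (horizontal axis, TMM scaling) of each member in 9 comparisons; points are the fitted values, bars ± SE, and colours mark tested values that passed or did not pass an adjusted p of 0.05 and values used to choose the family, which were not tested. Calls appear in the 2 tissue comparisons only, for miR-130a-3p, miR-301a-3p and miR-301b-3p.

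Across libraries the members followed different miRNAs. Likeness was the Pearson correlation r of log2 TMM-scaled CPM over all 18 libraries, among 435 miRNAs with a mean of at least 10 CPM. These points share tissues, genotypes and library composition, so r is a description. miR-130a-3p was most like miR-500-3p (r = 0.953), miR-124-3p (0.943) and miR-101a-5p (0.928). miR-130b-3p was most like let-7f-1-3p (0.856), let-7b-3p (0.826) and miR-18a-5p (0.824). miR-301a-3p was most like miR-19a-3p (0.929), miR-19b-3p (0.921) and miR-144-3p (0.884). miR-301b-3p was most like miR-376a-3p (0.948), miR-3106-5p (0.945) and miR-1197-3p (0.936).

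Within the 12 cerebellum libraries the nearest miRNAs were others. Among 404 miRNAs, miR-130b-3p was most like miR-337-3p (r = 0.970), miR-15b-5p (0.968) and miR-582-5p (0.952), and miR-130a-3p was most like miR-17-3p (0.916), miR-540-5p (0.904) and miR-582-5p (0.896). miR-301a-3p was most like miR-101a-5p (0.960), miR-19a-3p (0.955) and miR-369-3p (0.945). The 3 nearest to miR-301b-3p were the immune marker miR-142-5p (0.925) and the erythroid markers miR-451a (0.918) and miR-144-5p (0.912). Without Cdr1as671 libraries 1 and 2, an alternative chosen after seeing the data, these 3 were at 0.798, 0.794 and 0.781 over 10 libraries. The same 3 miRNAs named for miR-301a-3p were then at 0.765, 0.738 and 0.654, and those named for miR-130a-3p and miR-130b-3p at 0.851 to 0.958. The nearest miRNAs were not searched anew in these 10 libraries.

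Among the members themselves, r over the 12 cerebellum libraries was highest for miR-130a-3p with miR-130b-3p (0.865) and lowest for miR-130b-3p with miR-301a-3p (0.629). The cluster partners miR-130b-3p and miR-301b-3p had r = 0.751 over these libraries and 0.402 over all 18. miR-130a-3p and miR-301b-3p had r = 0.639 in cerebellum and -0.65 over all 18 libraries. Without Cdr1as671 libraries 1 and 2, the cerebellum r was 0.803 for miR-130a-3p with miR-130b-3p and 0.333 for miR-130b-3p with miR-301a-3p. For miR-301a-3p with miR-301b-3p it was 0.150, against 0.758 with these libraries. For the cluster partners it was 0.653, and 0.144 over the 16 libraries left of all 18. miR-130a-3p and miR-301b-3p had 0.444 in cerebellum and -0.78 over these 16. Over all 18 libraries miR-301a-3p with miR-301b-3p had r = -0.026, and over these 16 it had -0.76.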

How the data were processed

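Small RNAs of 18 to 32 nt from 5 ug of Trizol-extracted total RNA were sequenced, per the labels' protocols. Per the submitters' processing notes, cutadapt and DESeq2 1.10 were used. Which aligner, annotation and build lie behind the counts is not given in the sources used here. Whole-number counts per mature miRNA and library were deposited by the authors in 4 tables, and beside them normalised signal (each library's counts scaled by 1 size factor), marked as such per the file headers. The signal columns were compared with the counts and otherwise not used. The 3 cerebellum tables hold the same WT counts, which were used once.

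Groups were compared with edgeR 4.0.16 in R 4.3.3: filterByExpr (minimum count 10, minimum total 15), TMM, robust quasi-likelihood F-test, Benjamini-Hochberg adjustment over all tested miRNAs, threshold 0.05. The SE is the absolute log2 change over the square root of F. CyrKO, Cdr1as671 and CyrKOCdr1as671 were each compared with WT of their tissue in a fit of those 6 libraries. Tissue contrasts and the tissue difference of the CyrKO effect came from 1 fit of 12 WT and CyrKO libraries, and CyrKOCdr1as671 against Cdr1as671 or CyrKO from 1 fit of the 12 cerebellum libraries. DESeq2 1.42.0 was an alternative tool. The procedure was tested on simulated data. P-values of the fits weigh a change against the spread between samples, which the design text calls biological replicates. That spread is estimated over all groups of a fit and drawn toward that of other miRNAs.

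Named were the members, the other strand of their hairpins, all listed miRNAs with their seed, 5 related-seed guides and the 3 miRNAs most like each member. The members and lists were chosen with earlier results of these data known. Library numbers came from the labels. Deviations of same-numbered libraries from their group means correlated at r over 0.1 in every pair in 2 comparisons. These were CyrKO against WT cerebellum (0.218 to 0.599) and CyrKOCdr1as671 against WT (0.420 to 0.708). Elsewhere not every pair did. The numbers may thus pair the libraries in these 2 comparisons, but in no comparison did every library correlate best with its own number. The reported fits have no block, and the blocked fit is an alternative. Mature sequences and hairpin positions are from RefSeq and the GENCODE annotation on GRCm38.p6, which may not be the build behind the counts.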

Additional observations from a re-analysis of the deposited data

How the results depend on the processing

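Alternatives were RLE size factors or library totals in place of TMM, no or a stricter low-count filter, DESeq2, the library number as a block, all 18 libraries in 1 fit and leaving out libraries. The numbers of members called kept to within 1.5 times in all alternatives but one: in CyrKOCdr1as671 against Cdr1as671 it ran from 0 to 1 when libraries were left out in turn, with the 1 without Cdr1as671 library 3. The replicate block changed no member's call in the tested comparisons. In those described without a test, miR-130b-3p with the block was at -0.72 in Cdr1as671 against WT, -0.55 in CyrKOCdr1as671 against WT and -0.70 in CyrKOCdr1as671 against CyrKO. With the block 42 miRNAs were called in Cdr1as671 against WT, and 15 without it. There same-numbered libraries did not correlate at r over 0.1 in every pair, and in no comparison did every library correlate best with its own number. With library totals, the tissue changes of miR-130b-3p and miR-301a-3p reversed to 0.30 and 0.23 in WT and to 0.28 and 0.27 in CyrKO mice. miR-130b-3p passed in the CyrKO tissue comparison with RLE factors (-0.35, edgeR adjusted p = 0.0499) and the stricter filter (-0.42, adjusted p = 0.0171), and miR-301a-3p no longer passed in WT with all 18 libraries in 1 fit (-0.28, adjusted p = 0.069). The tissue difference of the CyrKO effect on miR-301a-3p reversed to -0.039 with the stricter filter and to -0.037 with all 18 libraries. Without Cdr1as671 libraries 1 and 2, CyrKOCdr1as671 against Cdr1as671 reversed to -0.0063 for miR-130b-3p and -0.049 for miR-301b-3p. There miR-130b-5p went from -0.085 to 0.015, miR-148a-3p from 0.12 to -0.075 and miR-152-3p from 0.061 to -0.099. Cdr1as671 against WT without these libraries reversed to 0.026 for miR-301a-3p and 0.017 for miR-301b-3p, and miR-301a-5p went from -0.10 to 0.13. Leaving out 1 library at a time gave both signs for small changes. For CyrKO against WT cerebellum the ranges were -0.14 to 0.054 (miR-130a-3p), -0.038 to 0.22 (miR-130b-3p) and -0.062 to 0.10 (miR-301a-3p). In hippocampus they were -0.020 to 0.18, -0.043 to 0.21 and -0.025 to 0.081, and for the tissue difference -0.0063 to 0.24, -0.21 to 0.088 and -0.097 to 0.096, in the same order. They were -0.014 to 0.30 for miR-130b-3p in CyrKOCdr1as671 against Cdr1as671, -0.28 to 0.074 for miR-301b-3p in CyrKOCdr1as671 against CyrKO, and -0.11 to 0.25 for the log2 strand ratio of miR-130a. Calls over all miRNAs ran from 0 (without Cdr1as671 library 1, WT library 1 or WT library 3) to 112 (without Cdr1as671 library 3) in Cdr1as671 against WT, with 15 reported. They ran from 6 to 61 in CyrKOCdr1as671 against WT (17 reported), from 2 to 33 in CyrKOCdr1as671 against CyrKO (16 reported) and up to 58, without Cdr1as671 library 3, in CyrKOCdr1as671 against Cdr1as671 (5 reported). The number tested moved too. The 61 were of 1312 miRNAs without the low-count filter (17 of 662 reported), and the 33 of 858 with DESeq2 (16 of 688 reported). With the stricter filter, which tested 447 miRNAs against 746 reported, the CyrKO tissue comparison had 355 calls (538 reported). The WT tissue comparison had 358 (522 reported). CyrKO against WT hippocampus had 7 without WT library 3 (4 reported), and the tissue difference of the CyrKO effect 5 with DESeq2 or all 18 libraries (3 reported). The cause of these changes was not tested. Depth limits miR-301b-3p, miR-130b-5p and above all miR-301b-5p, whose counts per library are low.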
